A study of Chlamydomonas reinhardtii with 15 samples.

Results

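In the green alga Chlamydomonas reinhardtii, 108 of 16283 microarray probes read transcripts that were higher after 2 h with either of 2 reactive electrophiles, DBMIB and 2(E)-Hexenal, while staying near the control level after NR or tBOOH. They were chosen by their difference from control, the mean log2 signal of 3 treated arrays minus that of 3 control arrays. A member had a difference of at least 1.5 under both DBMIB and Hexenal, a difference between -0.7 and 0.7 under both NR and tBOOH, and a mean signal of 6 or more under DBMIB or Hexenal. These 4 differences from control are therefore a description of the choice and carry no test. The rule set no upper limit on the difference between DBMIB and Hexenal, which was tested. Of the members, 53 had a difference from control below 2 under at least 1 electrophile. For a member near 1.5 there, the rule leaves room for a difference towards the other electrophile alone. Its signal limit bears on that difference in 10 members, 8 that passed through DBMIB alone and 2 through Hexenal alone, and the values of those named are given without a test. They are included in the counts of calls over all members and over named loci.

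All cultures were of the wild-type strain 4A+ in the 137c background, grown mixotrophically in Tris-acetate phosphate medium in the light. Cells were left untreated (control) or incubated for 2 h with NR at 3 µM, tBOOH at 100 µM, DBMIB at 2 µM or 2(E)-Hexenal at 0.3 mM. Each of the 5 groups had 3 arrays, 15 in all, described as independent biological replicates, and the 12 treated arrays share the same 3 controls. Each chemical was given at 1 dose and 1 time, and the doses of the electrophiles differ, so the comparison between them is one of the treatments as applied. RNA came from whole cultures, so a higher level in every cell and a response in a larger share of the cells cannot be told apart.

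Reactive electrophiles carry an electron-poor carbon that reacts with the sulfur of cysteine side chains and of glutathione. DBMIB is a brominated benzoquinone, best known as an inhibitor of electron transfer from plastoquinol to the cytochrome complex of the thylakoid, and as a quinone it can also react with thiols. 2(E)-Hexenal is an α,β-unsaturated aldehyde, a leaf volatile that plants form when fatty acid hydroperoxides are cleaved. NR (neutral red) is a dye that produces singlet oxygen in the light, and tBOOH (tert-butylhydroperoxide) is an organic hydroperoxide. In plants, both kinds of agent are known to raise genes of detoxification and stress defence, and reactive electrophiles are also formed in cells when lipids are oxidised. NR and tBOOH are called the oxidants below.

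The array design follows the JGI gene models, version 4. A locus tag could be given to 46 of the 108 members through the transcript number (42.6%, as for all probes), and the tags came without gene names or functions. Members are therefore named by locus tag, or by the number of the JGI transcript where no tag was found. No functional group of genes could be counted, and no sequence is shown.

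Levels below are the authors' deposited log2 values, in which 1 unit is a doubling and every array has the same distribution, with a median of 6.953. In the treated arrays, 99.995% of deposited values of 6 or more were well above background, whereas between 3 and 4 the share was 39.8% and below 3 it was 0.911%. Between 72.7% (DBMIB replicate 2) and 89.9% (NR replicate 2) of all probes were well above background on a treated array. Background calls for the control arrays were not used here. Correlations of the deposited values across probes were 0.983 to 0.995 within groups and 0.867 to 0.959 between groups.

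In untreated cells the members covered nearly the whole range of the array. Their control means ran from 1.35 to 13.71 with a median of 6.15, against 6.97 for all probes. Under DBMIB their means ran from 5.63 to 16.66 with a median of 8.96, and under Hexenal from 3.11 to 16.53 with a median of 8.62. The difference from control had a median of 2.50 under DBMIB (1.505 to 8.47) and of 2.25 under Hexenal (1.51 to 6.60). Under NR the median was 0.18 and under tBOOH 0.16. Over all probes the same medians were 0.06 for DBMIB, 0.13 for Hexenal, 0.01 for NR and 0.09 for tBOOH. A typical member was thus somewhat below the average probe in untreated cells and well above it under either electrophile.

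**Figure D1:**
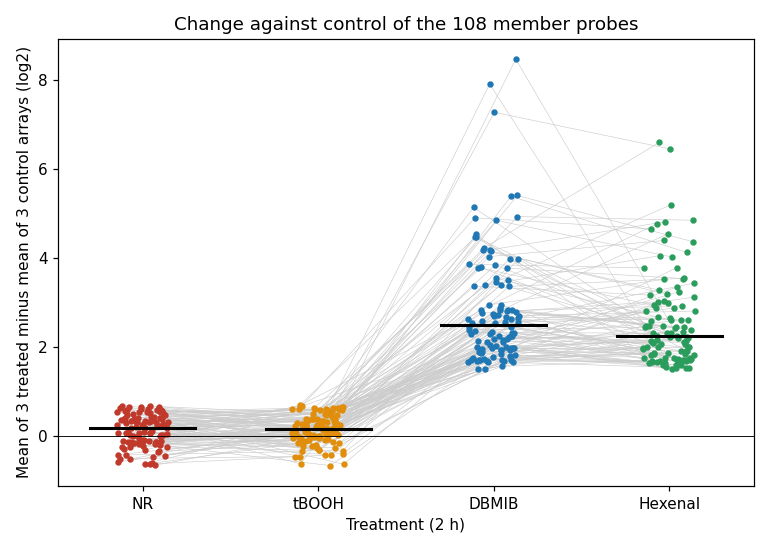
Difference from control (log2, deposited values) of each of the 108 member probes in the 4 treatments. A grey line joins the values of 1 probe and black bars are the medians, which lie at 0.18 (NR), 0.16 (tBOOH), 2.50 (DBMIB) and 2.25 (Hexenal). The empty band between 0.7 and 1.5 follows from the membership rule.

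Of 1048 probes with a difference of at least 1.5 in both DBMIB and Hexenal and enough signal, 626 lay above 0.7 in both NR and tBOOH, as did 13.1% of all probes. A further 136 lay above it under tBOOH alone and 95 under NR alone. At least 1 oxidant took 83 below -0.7, and the 108 members were what was left, 10.3% of the 1048 and 0.663% of all probes. The same rule with the treatments exchanged, higher under NR and tBOOH and near control under the electrophiles, gave 24 probes. For mixed pairs it gave 31 probes (tBOOH and DBMIB), 12 (tBOOH and Hexenal), 3 (NR and Hexenal) and 2 (NR and DBMIB). All these counts share the same controls.

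The limits of the rule fell in a continuum. JGI transcript 416171, with a difference of 1.505 under DBMIB, was the member closest to that limit, and JGI transcript 287214, at 1.44, lay outside. Under Hexenal, JGI transcript 182197 lay inside at 1.51 and JGI transcript 284975 outside at 1.49. For the size of the NR difference, JGI transcript 290623 was inside at 0.689 and JGI transcript 293667 outside at 0.704. For that under tBOOH, JGI transcript 325653 was inside at 0.696 and CHLRE_07g353600v5 outside at 0.705. By signal, JGI transcript 313005 was inside at 6.01 and CHLRE_06g270350v5 outside at 5.86.

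The separation was seen array by array in nearly every member. All 3 DBMIB arrays lay above all 3 control arrays for 108 members, where 31.4% of all probes did so, and all 3 Hexenal arrays did so for 106 members, against 35.9% of all probes. For 105 members the 6 electrophile arrays lay above the other 9 arrays, against 6.37% of all probes. The rule used these contrasts, so the counts describe how tight the replicates were. The median SD of the members was 0.24 in control, 0.17 in DBMIB and 0.19 in Hexenal, against 0.25, 0.26 and 0.19 for all probes. Under the electrophiles the typical member was brighter than the typical probe, and these SDs were not matched for signal. The NR arrays overlapped the control arrays for 77 members and the tBOOH arrays for 79. The rule holds both oxidants near control, so this overlap follows largely from the choice. The same share over all probes was not computed, and nothing is read from these counts.

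A set of 17 members had a difference of at least 3 under both electrophiles, and 55 had at least 2 under both. JGI transcript 283823, singled out after its values were seen, had the highest level of any member under DBMIB. Its control arrays read 9.28, 9.54 and 9.35, the NR arrays 9.31, 9.25 and 9.31, and the tBOOH arrays 9.58, 9.36 and 9.22. The DBMIB arrays read 16.79, 16.76 and 16.44 and the Hexenal arrays 15.67, 16.04 and 15.81. Control and oxidant arrays thus overlapped closely, and both electrophiles brought the transcript to the top of the array, 155-fold and 87.5-fold above control. The lead of DBMIB over Hexenal was itself called, at 0.90 ± 0.18 (log2, SE; adjusted p = 0.00128 in the limma fit described with that comparison).

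Among members tied to a locus, the abundant ones included CHLRE_10g456000v5. Its control arrays read 13.72, 13.73 and 13.68, NR 13.41, 13.08 and 13.13, tBOOH 13.32, 13.31 and 13.13, DBMIB 16.15, 16.03 and 15.86, and Hexenal 16.50, 16.66 and 16.42. The oxidants lay slightly below control and the electrophiles 4.94-fold (DBMIB) and 7.05-fold (Hexenal) above it, with no overlap. CHLRE_02g091250v5 read 12.47, 12.54 and 12.70 in control, 14.83, 14.85 and 14.75 under DBMIB and 14.46, 14.84 and 14.81 under Hexenal. Its NR arrays, at 13.21, 13.27 and 12.96, all lay above control, within the width that the rule allows. CHLRE_17g723900v5 read 11.18, 11.26 and 11.06 in control, 13.96, 14.05 and 13.94 under DBMIB and 14.19, 14.07 and 14.02 under Hexenal, 7.05-fold and 7.60-fold above control. Both electrophiles left this transcript at nearly the same level. CHLRE_03g158150v5 read 10.84, 11.17 and 11.57 in control, 14.29, 13.97 and 13.45 under DBMIB and 13.42, 13.58 and 13.25 under Hexenal. In all, 22 members had a control mean of 9 or more, and their differences ran from 1.66 to 7.27 under DBMIB (median 2.27) and from 1.59 to 6.45 under Hexenal (median 2.23).

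At the other end, 15 members had a control mean below 4 (13.9%, against 16.6% of all probes), 9 of them below 3. Of the values on treated arrays, 0.911% below 3 and 39.8% between 3 and 4 were well above background. The differences of the 15 members had medians of 4.03 under DBMIB and 3.52 under Hexenal. The signal limit of 6 requires a difference of more than 2 under at least 1 electrophile from any member this dim in control. On none of the 6 oxidant arrays were 8 of these members well above background, and 7 of the 8 were well above it on all 6 electrophile arrays. CHLRE_17g739000v5 read 1.35, 1.37 and 1.42 in control, 1.38, 1.39 and 1.41 under NR and 1.78, 1.42 and 1.79 under tBOOH. It read 7.14, 6.52 and 6.64 under DBMIB and 5.22, 5.68 and 5.62 under Hexenal. This transcript was thus at the bottom of the array in 9 cultures and clearly measured in 6. CHLRE_03g152701v5 behaved alike, at 1.43, 1.36 and 1.41 in control, 6.68, 6.86 and 6.86 under DBMIB and 5.20, 6.16 and 5.93 under Hexenal. CHLRE_16g679333v5 read 1.94, 1.90 and 1.54 in control, 6.34, 6.95 and 6.64 under DBMIB and 5.71, 6.00 and 5.75 under Hexenal. In all 3 the DBMIB arrays lay above the Hexenal arrays.

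CHLRE_06g305350v5 had the opposite order, at 2.11, 2.49 and 2.68 in control, 6.37, 6.45 and 7.001 under DBMIB and 7.11, 7.47 and 7.15 under Hexenal. Its tBOOH arrays spread from 2.23 to 3.83, all in the range of background. CHLRE_12g543302v5 read 2.66, 1.499 and 1.86 in control, 6.46, 6.17 and 5.49 under DBMIB and 6.11, 6.39 and 6.71 under Hexenal, so that its electrophile arrays overlapped each other. CHLRE_11g477050v5 read 2.96, 2.32 and 2.75 in control, 5.70, 5.32 and 5.86 under DBMIB and 5.71, 6.49 and 6.40 under Hexenal. For transcripts this dim in control, the size of the difference rests on a control value near the floor of the array and is nominal.

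Between these ends stood 71 members with a control mean from 4 to 9. Their differences had medians of 2.33 under DBMIB (1.505 to 8.47) and 2.14 under Hexenal (1.51 to 6.60). CHLRE_02g082250v5, read by a cross-hybridising probe in 1 spot, had the largest smaller-of-the-pair difference among all members with a locus. It read 4.55, 4.36 and 3.59 in control, 9.08, 8.91 and 9.22 under DBMIB and 8.75, 8.79 and 8.92 under Hexenal, and its oxidant arrays ran from 4.35 to 5.16. CHLRE_08g372200v5 read 4.86, 4.21 and 4.54 in control, 8.39, 8.37 and 8.43 under DBMIB and 8.21, 8.76 and 7.97 under Hexenal. CHLRE_06g277200v5 read 5.10, 4.16 and 4.07 in control, 7.75, 7.98 and 7.77 under DBMIB and 8.40, 8.52 and 8.57 under Hexenal. Each of these 3 stood at least 10-fold above control under both electrophiles, with no overlap.

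CHLRE_05g233850v5 had 1 high control, at 6.16 beside 4.78 and 4.60, and read 9.19, 9.12 and 8.60 under DBMIB and 8.11, 8.001 and 8.24 under Hexenal. CHLRE_01g025200v5 had tighter arrays, at 3.76, 3.82 and 4.00 in control, 7.51, 7.74 and 7.66 under DBMIB and 7.34, 7.66 and 7.21 under Hexenal. Both electrophiles lay above all controls in each. Other named loci had smaller differences. CHLRE_02g112050v5 was higher by 2.70 (DBMIB) and 2.81 (Hexenal), and CHLRE_13g579000v5 by 2.84 and 2.45. CHLRE_11g475550v5 was higher by 2.82 and 2.44, CHLRE_06g255750v5 by 2.25 and 2.88, and CHLRE_02g077451v5 by 2.11 and 3.24.

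**Figure D2:**
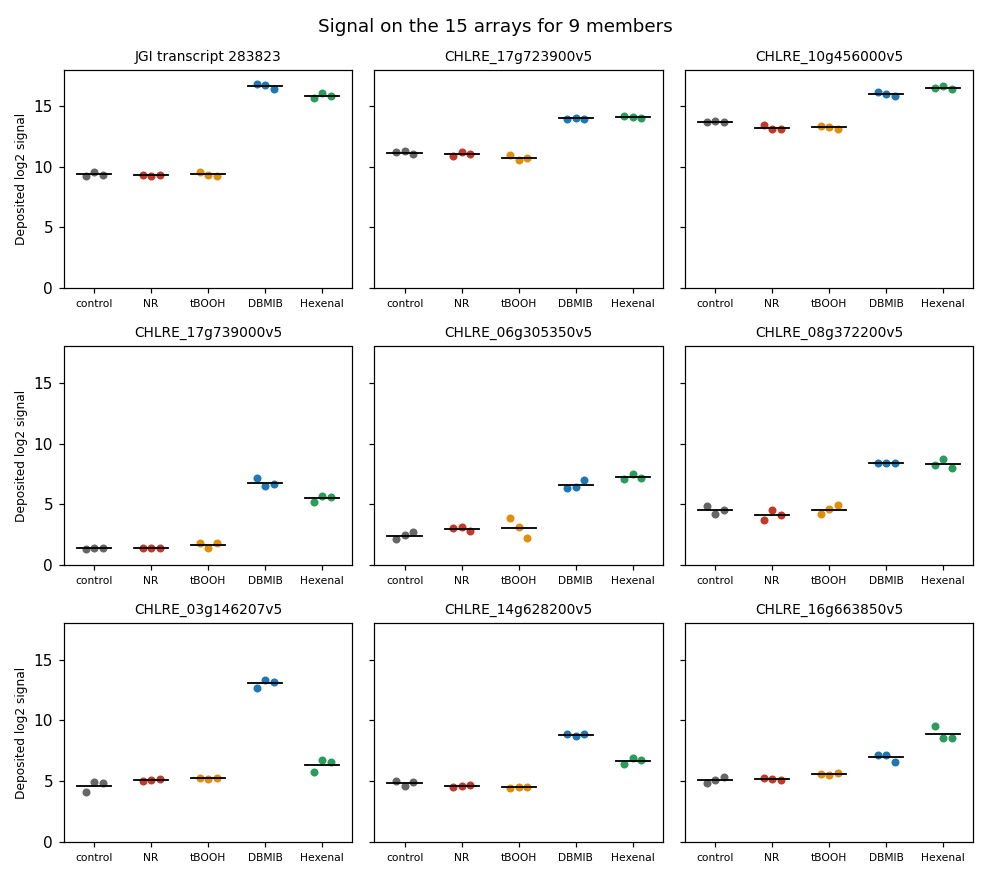
Deposited log2 signal on each of the 15 arrays for 9 members, with 1 point per array, replicates 1 to 3 from left to right, and a bar at the group mean. The top row holds abundant transcripts, the middle row dimmer ones, and the bottom row members that differed between the electrophiles. In every panel the 6 electrophile arrays lie above the 9 other arrays.

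DBMIB and Hexenal were then compared with each other, which the rule left free above its lower limit of 1.5. Some loci named below lay near that limit on their lower side, so the rule left mainly 1 direction open to them. The differences from control were 1.73 (CHLRE_03g146207v5) and 1.83 (CHLRE_14g628200v5) under Hexenal. Under DBMIB they were 1.86 (CHLRE_16g663850v5) and 1.70 (CHLRE_17g698600v5). More of the called members were higher under DBMIB than lower, and on the scanner signal the same held for the calls over all probes. The largest difference among the members was in that direction as well. Here the scanner signals of the 12 treated arrays were used, as log2 minus the 75th percentile of each array, in a limma model over all probes with Benjamini-Hochberg adjustment, called at an adjusted p under 0.05. Of the 108 members, 54 were called (50%), beside 42.1% of all probes. Higher under DBMIB were 37 (25.1% of all probes were called in that direction) and lower were 17 (17.0% of all probes). The fit was also run with only the probes well above background on all 3 arrays of at least 1 treatment. It called the same 54 members, beside 6614 of 14503 probes, so part of the gap to all probes goes with dim probes. Of the 8 members that passed the signal limit through DBMIB alone, 7 were called higher and 0 lower, the direction that the limit favours. Of the 2 that passed through Hexenal alone, 0 were called higher and 1 lower. Among the 98 members whose mean was 6 or more under both electrophiles, 46 were called, 30 higher and 16 lower. The share of all probes called at that signal was not computed. At a difference of at least 2-fold, 28 of all members were called, 20 higher and 8 lower, against 23.5% of all probes called at that size. Normexp background correction with an offset of 50, added after the data were seen, gave 8 members and 1050 of all probes with local backgrounds as given. It gave 59 and 7431 in a second run, added later, in which local backgrounds marked by the scanner were replaced by the array's median. That run also left out the spots flagged as outliers or non-uniform, which the first run kept. In the first run NR replicate 2 and tBOOH replicate 3, which share in the estimate of the spread, held local backgrounds, averaged per probe, of up to 16320 and 65530, against at most 66 on the other 10 arrays.

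The direction depended in part on the scaling. The median of all probes lay at 0.20 on the scanner scale and at 0.00 (-0.003) on the deposited scale, and the median member at 0.26 and 0.09. Of the calls over all probes, 59.6% were higher under DBMIB on the scanner scale and 45.0% on the deposited scale, and for the members 68.5% and 64.7%. On the deposited values 51 members were called (39.3% of all probes), 33 higher and 18 lower (17.7% and 21.6% of all probes). In the same direction on both scales, 49 members were called. Over all probes, 5560 of the 6863 called on the scanner scale were also called on the deposited values, with direction not compared.

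CHLRE_03g146207v5 stood furthest apart. Its DBMIB arrays read 12.71, 13.36 and 13.18 and its Hexenal arrays 5.73, 6.70 and 6.61. Control read 4.12, 4.90 and 4.83, NR 5.03, 5.06 and 5.21, and tBOOH 5.23, 5.18 and 5.27. The Hexenal arrays thus lay a little above the oxidant arrays and far below the DBMIB arrays. The difference between the electrophiles was 7.07 ± 0.25 (log2, SE; 95% interval 6.52 to 7.62), 134-fold, with an adjusted p of 1.12e-08. It was 6.04 in the first normexp run and 6.03 in the second, and called in both. JGI transcript 392822 was singled out after its values were seen. It passed the signal limit through DBMIB alone and read 8.41, 9.51 and 9.86 under DBMIB and 1.36, 3.76 and 4.22 under Hexenal, where it was well above background on 1 array of 3. Its control and oxidant arrays all lay between 1.29 and 1.41, as did 1 Hexenal array.

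CHLRE_14g628200v5 read 8.86, 8.70 and 8.87 under DBMIB, 6.39, 6.89 and 6.71 under Hexenal and 4.99, 4.56 and 4.96 in control. The levels formed 3 separate steps, and the difference between the electrophiles was 2.36 ± 0.18 (adjusted p = 1.2e-06), 1.73 in the first normexp run (adjusted p = 0.212) and 1.72 in the second (adjusted p = 1.24e-07). Of the 14 named loci called here, 1 was called in the first normexp run and 14 in the second. The 14 include CHLRE_17g739000v5, CHLRE_03g152701v5, CHLRE_16g679333v5, CHLRE_09g397050v5 and CHLRE_02g077451v5. Each of these passed the signal limit only through the electrophile in which it was higher, so for them a call in any run is a description. CHLRE_09g397050v5, read by a cross-hybridising probe in 1 spot, had 7.01, 7.66 and 7.50 under DBMIB and 4.39, 6.24 and 5.83 under Hexenal. It passed the signal limit through DBMIB alone, as did CHLRE_17g739000v5, CHLRE_03g152701v5 and CHLRE_16g679333v5, whose higher level under DBMIB is therefore a description. Among the 71 with a control mean from 4 to 9, 26 were called higher and 13 lower, and among the 22 brighter ones, 4 and 3. The shares of all probes called in these ranges were not computed, so nothing is read from these counts.

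In the other direction, CHLRE_16g663850v5 read 7.15, 7.14 and 6.58 under DBMIB, 9.51, 8.57 and 8.57 under Hexenal and 4.86, 5.10 and 5.34 in control. DBMIB minus Hexenal was -1.83 ± 0.26 (adjusted p = 0.000131), the largest difference towards Hexenal among members with a locus. JGI transcript 57976, singled out after its values were seen, was the largest of all 108 in that direction. It read 10.53, 10.68 and 10.26 under DBMIB, 13.42, 12.51 and 12.66 under Hexenal and 6.03, 6.16 and 6.61 in control, and the difference was -2.47 ± 0.26 (adjusted p = 1.08e-05). CHLRE_17g698600v5, an abundant transcript, read 13.63, 13.75 and 13.54 under DBMIB and 14.58, 14.61 and 14.06 under Hexenal, a difference of -0.93 ± 0.23 (adjusted p = 0.00602). CHLRE_02g077451v5, which passed the signal limit through Hexenal alone, read 6.32, 5.56 and 5.66 under DBMIB and 6.85, 7.03 and 7.05 under Hexenal. In these 4 transcripts every Hexenal array lay above every DBMIB array.

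Some calls of smaller differences did not hold with 1 array fewer, although the differences stayed in the same direction. CHLRE_06g255750v5 differed by -0.66 ± 0.21 (adjusted p = 0.0225). The call was lost without DBMIB replicate 1 (-0.50, adjusted p = 0.0775), DBMIB replicate 3 (-0.63, 0.0602), Hexenal replicate 1 (-0.63, 0.0590) or Hexenal replicate 3 (-0.63, 0.0662). CHLRE_06g277200v5, at -0.57 ± 0.21 (adjusted p = 0.0452), lost its call without any 1 of the 6 arrays, with differences from -0.65 to -0.53, and on the deposited values (-0.67, adjusted p = 0.0541). CHLRE_10g456000v5, at -0.51 ± 0.18 (adjusted p = 0.0402), lost it without DBMIB replicate 2 or 3 or Hexenal replicate 1 or 2, with differences from -0.55 to -0.37. CHLRE_05g233850v5 was higher under DBMIB by 1.01 ± 0.22 (adjusted p = 0.00246), with an adjusted p of 0.0533 on the deposited values.

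The other 54 members were not called, which does not show that the electrophiles acted alike on them. With the replicate number as a block, which was taken to pair the DBMIB and Hexenal arrays, 4 of these were called as well and no call was lost. In the fit without the block, for 42 of the 54 the 95% interval of the difference lay within 1 unit of 0 on either side, so a difference of more than 2-fold fell outside that interval. CHLRE_17g723900v5 differed by -0.25 (95% interval -0.60 to 0.11), CHLRE_02g091250v5 by 0.07 (-0.30 to 0.43), CHLRE_02g112050v5 by 0.12 (-0.30 to 0.55) and CHLRE_03g202500v5 by -0.07 (-0.50 to 0.36). For CHLRE_06g305350v5 the interval was wider, from -1.05 to 0.22 around -0.41. CHLRE_08g372200v5 differed by 0.20 with an interval from -0.42 to 0.82.

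**Figure D3:**
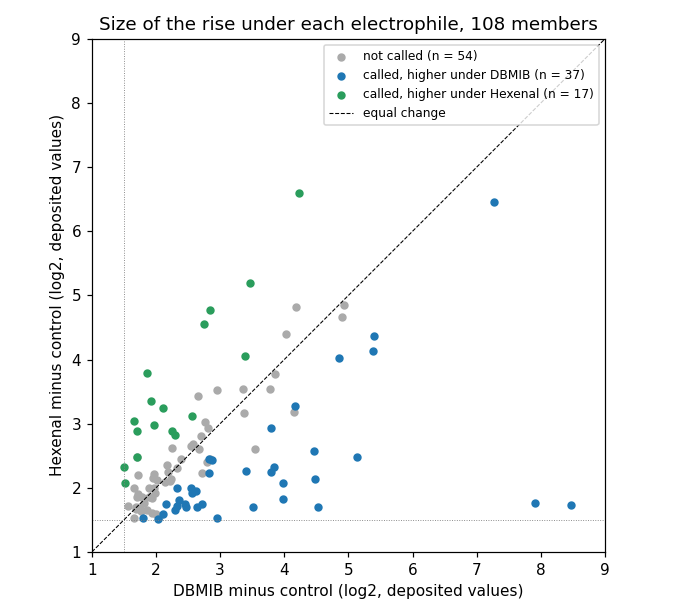
Difference from control under DBMIB (x axis) and under Hexenal (y axis), log2, deposited values, for the 108 members. Blue points are the 37 members called higher under DBMIB on the scanner signal, green points the 17 called lower, grey points the 54 not called, and dotted lines mark the limit of 1.5 set by the rule. The blue points at the lower right are CHLRE_03g146207v5 and JGI transcript 392822.

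**Figure D4:**
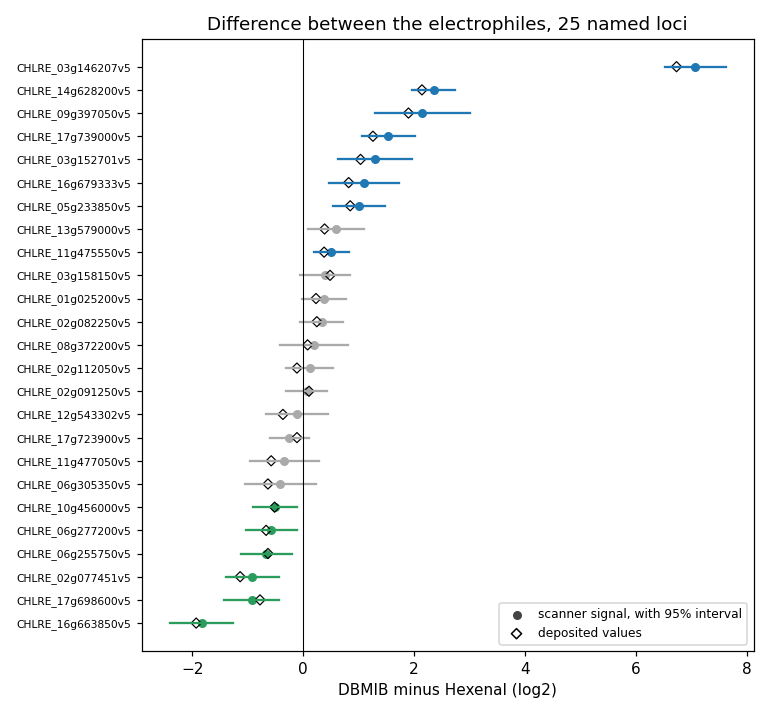
DBMIB minus Hexenal (log2) for 25 named loci. Filled points with bars are the scanner signal with its 95% interval, coloured where called (blue higher, green lower under DBMIB), and open diamonds are the deposited values. CHLRE_17g739000v5, CHLRE_03g152701v5, CHLRE_16g679333v5, CHLRE_09g397050v5, CHLRE_11g477050v5 and CHLRE_02g077451v5 passed the signal limit through 1 electrophile alone, so their colour is a description. CHLRE_03g146207v5, at 7.07, lies far from all others, and the lowest is CHLRE_16g663850v5 at -1.83.

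NR and tBOOH were compared in the same fit. The rule holds both within 0.7 of control, so on the deposited scale they could differ by at most 1.4. Of the 108 members, 22 were called (20.4%), where 47.6% of all probes were. Higher under NR were 13 (24.2% of all probes) and lower were 9 (23.4%). On the deposited values 24 were called, against 48.3% of all probes. Nothing is read from that lower share, since the rule bounds the difference. Without NR replicate 3, 12 members and 6726 of all probes were called, and without tBOOH replicate 3, 14 and 6836. With all arrays the counts were 22 and 7746, so the member calls fell by a larger share. In limma on the first normexp run the count of members called was 0 (0 at an unadjusted p under 0.05), against 1224 of all probes. On the second it was 18, against 7513.

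A difference of at least 2-fold was called in 2 members (26.9% of all probes), of which CHLRE_02g112050v5 has a locus. It read 4.45, 4.16 and 4.34 under NR and 3.37, 3.49 and 3.26 under tBOOH, with control arrays at 3.94, 3.88 and 4.20. The NR arrays overlapped control and the tBOOH arrays lay below it. The transcript was well above background on all 3 NR arrays and on 0 of 3 tBOOH arrays, so the fold on the scanner scale is a nominal bound, at least 2.21-fold higher under NR (adjusted p = 0.000389). On the deposited values the difference was 0.94 (log2), and it was -0.41 in the first normexp run (adjusted p = 0.712) and 0.14 in the second (adjusted p = 0.321), so that the call held in neither and the direction in the second alone. CHLRE_16g684603v5 read 7.68, 7.71 and 7.73 under NR, 6.83, 7.11 and 6.72 under tBOOH and 7.40, 7.24 and 7.38 in control. It was higher under NR by 0.85 ± 0.16 (adjusted p = 0.00101), and the 3 groups did not overlap.

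In the other direction, CHLRE_03g202500v5 read 11.49, 10.69 and 11.11 under NR and 11.82, 11.49 and 11.83 under tBOOH, with controls from 11.12 to 11.99. NR minus tBOOH was -0.73 ± 0.20 on the scanner scale (adjusted p = 0.00885), although the lowest tBOOH and the highest NR array were level on the deposited scale. CHLRE_10g425000v5 read 8.59, 8.59 and 8.74 under NR and 9.42, 9.44 and 9.37 under tBOOH, a difference of -0.76 ± 0.27 (adjusted p = 0.0348). That call was lost without any 1 of the 6 arrays, with differences from -0.82 to -0.73 and adjusted p from 0.0568 to 0.0836.

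Not every member was steady across its replicates. JGI transcript 419839 owed the width of its controls to 1 array, at 8.39, 5.49 and 4.99, and the highest control lay above the lowest Hexenal array, at 8.22. CHLRE_10g455700v5 read 8.03, 10.27 and 9.44 under DBMIB and 8.46, 9.70 and 8.98 under Hexenal, with replicate 1 the lowest in both groups. Its lowest DBMIB array fell below the highest tBOOH array, at 8.11. JGI transcript 282894 had the same order with a wider spread, at 7.59, 11.23 and 10.47 under DBMIB and 7.96, 9.63 and 8.87 under Hexenal. JGI transcript 338047 varied under NR, at 9.82, 12.03 and 11.54 around a control of 11.05, 11.36 and 11.34. These 4 members were picked for their spread after the values were seen, and the SD of their widest groups ran from 1.13 to 1.92.

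Cross-hybridising probes, which can read more than 1 transcript, made up 11 of the members (10.2%, against 6.39% of all probes). Their differences ran from 1.76 to 5.14 under DBMIB and from 1.64 to 4.77 under Hexenal, within the range of the 97 specific probes. A single spot on the array read 11 members. Repeat spots of the other 97 had a median SD of 0.10 on the log2 scale, against 0.11 for all probes.

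Position could be looked at for the 46 members with a locus. Ordered along the chromosomes, no pair among them was adjacent, and 2 pairs lay within 10 loci of each other. CHLRE_12g543302v5 and CHLRE_12g543400v5 were 4 steps apart, and CHLRE_10g456000v5 and CHLRE_10g455700v5 were 6 steps apart. CHLRE_12g543400v5 read 11.23, 11.02 and 11.14 in control, 13.14, 12.99 and 12.70 under DBMIB and 12.91, 12.87 and 12.90 under Hexenal, so this pair joined a transcript at the floor and an abundant one. The loci next to a member were read by 45 probes, of which 3 (6.67%) had a difference of at least 1.5 under both electrophiles, near the 7.07% of all probes. One of them, CHLRE_03g152750v5, lies beside CHLRE_03g152701v5 and was higher by 8.41 under DBMIB, 2.69 under Hexenal and 2.28 under NR, and differed by -1.05 under tBOOH. CHLRE_06g277150v5, beside CHLRE_06g277200v5, was higher by 7.37, 4.81, 1.73 and 3.38 under DBMIB, Hexenal, NR and tBOOH. CHLRE_06g281286v5, beside CHLRE_06g281300v5, was higher by 2.15, 3.20, 0.71 and 1.26 in the same order. These 3 neighbours were higher under the electrophiles as well, but NR or tBOOH moved them beyond the window that defines the members.

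The size of the differences from control depended on how the arrays were scaled. The 7 bright spike-in features, which read control RNA added to each sample, were not level between groups on the deposited values. Centring each array on them moved every difference from control down, by -0.54 under DBMIB, -0.28 under Hexenal, -0.18 under tBOOH and -0.15 under NR. All 108 members then still lay above 0 under both electrophiles, and 60 of them at 1.5 or more in both. The rule applied to these values gave 73 members, 56 of them among the 108. The spike-in features of control replicate 1 lay at -0.57 relative to the mean of all arrays, and without that array the rule gave 77 members on the same centring, 68 of them among the 108.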

How the data were processed

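Per the labels' protocols, Cy3-labelled RNA from each of 15 cultures was hybridised to its own Agilent array, with probes for JGI gene models. The authors deposited log2 values of all 15 arrays in 1 table, whose columns hold the same distribution within 0.01, so they were quantile-normalized. For the 12 treated arrays the deposited scanner tables hold the processed signal intensity of every spot, already corrected for background. Which version of the scanner software made them is not stated. The tables also hold per-spot outlier and background calls, per the file headers.

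The deposited log2 values, with which the rule was written, gave all levels and differences from control. The comparisons between treatments used log2 of that signal, with the 75th percentile of each array subtracted, spots averaged per probe after leaving out the 1.47% to 1.78% flagged as outliers or non-uniform, in limma 3.58.1 (lmFit, eBayes; R 4.3.3) over 4 groups of 3 arrays, with no filter on dim probes. Calls are two-sided at a Benjamini-Hochberg adjusted p under 0.05 over 16283 probes. The fit was also run on simulated data with known changes and independent noise, and the outcome is not given here. A probe counted as well above background where at least 0.5 of its spots were. No spot was saturated. A fold given as at least N replaces values of the dimmer group by the array's lowest value well above background where that is higher, and is nominal.

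Members, gene lists and tests were chosen with earlier results of these data known. The members named are the 20 loci with the largest smaller-of-the-pair difference from control, the 4 most above and below 0 in DBMIB minus Hexenal and the 2 in NR minus tBOOH among loci called, those nearest each limit, and others where said. Gene lists fixed by symbol or product could not be counted, since the table of 17742 loci used for names gives tags alone. Transcript numbers below 200000 matched a locus for 86.8% of probes, against 18.3% after shifting the numbers by 1. Larger numbers matched no better than shifted ones and were left without a locus. Coordinates were not used beyond the order of loci, since that table rests on a later assembly.

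Replicate numbers are shared by the groups in the labels. Deviations from the group means of same-numbered DBMIB and Hexenal arrays correlated at 0.22, 0.29 and 0.26 (scanner scale), so these numbers were taken to pair the samples. Those of different-numbered DBMIB and Hexenal arrays ran from -0.20 to -0.05. For NR and tBOOH the correlations were 0.04, 0.13 and 0.25 with the same number and -0.20 to 0.05 with different numbers. The value for replicate 1 lay within the latter range, so these numbers were not taken to pair NR and tBOOH, and whether they do is not settled. With 3 arrays a group, the number of arrays limits the precision.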

Additional observations from a re-analysis of the deposited data

How the results depend on the processing

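The number of members followed the limits of the rule. It was 224 with a limit of 1 and 55 with a limit of 2 in place of 1.5, and 64 with a window of 0.5 and 181 with 1 in place of 0.7. Leaving out each array in turn gave 101 to 117 members. Members called in DBMIB minus Hexenal ranged from 45 to 54 when an array was left out, and those in NR minus tBOOH from 12 to 21, against 22. Over all probes the calls ranged from 5619 to 7104 in DBMIB minus Hexenal, against 6863. In NR minus tBOOH they ranged from 6726 to 6968, against 7746. With the replicate block the calls in DBMIB minus Hexenal were 58 of the members and 7353 of all probes, against 54 and 6863, and the block moved no count of calls by more than 1.5 times. In NR minus tBOOH, where the numbers were not taken to pair the samples, it gave 25 members and 8236 of all probes. Normexp on median and background signals was added after seeing the data because no mean signal was at hand. With backgrounds as given it called 8 members and 1050 probes in DBMIB minus Hexenal, and 0 members (0 at an unadjusted p under 0.05) and 1224 probes in NR minus tBOOH. In that run the SD of log2 values over probes was 1.81 on NR replicate 2 and 1.06 on tBOOH replicate 3, against 2.28 to 2.48 on the other arrays. With marked backgrounds replaced and flagged spots left out, in a run added after the first was seen, it called 59 members and 7431 probes, and 18 members and 7513 probes. None of the named differences from control changed direction when an array was left out or with spike-in centring, which moved 23 of 40 of them by more than their replicate SD. For named differences between treatments, leaving out an array kept direction and call in 148 values, lost the call in 20 and gained one in 2, and the other settings kept 199, lost 21 and gained 2. A few changed sign. DBMIB minus Hexenal of CHLRE_02g112050v5 became -0.11 on deposited values, with and without the replicate block, -0.11 after quantile normalization, and between -0.0645 (without Hexenal replicate 1) and 0.2886 (without Hexenal replicate 2) with an array left out. That of CHLRE_12g543302v5 became 0.0396 and 0.0357 in the normexp runs, and lay between -0.3457 (without DBMIB replicate 1) and 0.1365 (without DBMIB replicate 3) with an array left out, also above 0 without Hexenal replicate 3 (0.0532). That of CHLRE_11g477050v5 became 0.0132 and 0.0092 in the normexp runs. That of CHLRE_02g091250v5 became -0.0198 and -0.0211 in the normexp runs, and lay between -0.0761 (without Hexenal replicate 1) and 0.1778 (without Hexenal replicate 2). NR minus tBOOH of CHLRE_02g112050v5 became -0.41 in the first normexp run. The cause of these changes was not tested. No slide or scan was given, so neither was used as a block, and alternatives for calls against control were not run because no such call is reported. Transcripts with a control mean below 4 lie near background, which limits what can be said of their size.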
